A study of Homo sapiens with 70 samples.

Results

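The 41 genes described here encode the working parts of the lysosome and of autophagy, the route by which cells wrap their own contents in a membrane and deliver them to the lysosome. They are a fixed list of gene symbols grouped by known function, drawn up with earlier results of these data known, and all 41 were found among the 20090 gene symbols of the deposited tables. The list holds 13 lysosomal hydrolases and activators, 5 lysosomal membrane proteins and channels and 5 subunits of the vacuolar ATPase (V-ATPase), which make up 23 lysosomal genes. It also holds the 3 transcription factors TFEB, TFE3 and MITF and 15 autophagy genes, which are 2 cargo receptors, 5 genes of initiation and nucleation, 3 of the ATG8 family and 5 of the ATG conjugation machinery. Hep3B and Huh7, both lines derived from human hepatocellular carcinoma, were treated for 24 h, and poly-A RNA was sequenced in 70 libraries. Cells received 5 µM GW3965, an agonist of the liver X receptors (LXR), or 2 µM sorafenib, an inhibitor of several kinases used against liver cancer, or both drugs, or the vehicle DMSO. Each of the 8 groups of line and drug held 9 libraries, except the Huh7 groups labelled GW3965 and DMSO, which held 8. Every comparison sets a drug group against DMSO of its own line, so the 3 comparisons of a line share their DMSO libraries.

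Lysosomes are acidic organelles in which hydrolases break down proteins, lipids and sugars. The V-ATPase pumps protons into them, and heavily glycosylated proteins such as LAMP1 and LAMP2 line their membrane. The channel MCOLN1 and the exchanger CLCN7 are among the proteins that pass ions across it. In autophagy the ULK1 kinase complex and the BECN1 lipid kinase complex start a membrane sac, the ATG conjugation enzymes attach ATG8 proteins such as MAP1LC3B to it, and receptors such as SQSTM1 bring in cargo. TFEB, TFE3 and MITF bind E-box sequences in the promoters of many of these genes, and the kinase mTORC1, which sits on the lysosome, holds them in the cytoplasm when nutrients are plentiful.

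The data are 6 tables with a mean log2 CPM (a read count scaled to the total of its library), a log2 fold change of drug over DMSO, and an edgeR p-value and FDR for each transcript, and a gene was called changed where the FDR of its representative transcript was under 0.05. Values of single libraries were not used here, so the depth of a library, the spread between replicates and outlying libraries could not be examined. Whether the libraries of a group are separate cultures is not in the labels, so the p-values may measure only technical spread. Of the 7 markers of hepatocytes, all 7 were at 2 CPM or more in DMSO, from 104 to 9446 CPM in Hep3B and from 153 to 1.007e+04 CPM in Huh7. Among markers of other cell types, 1 of 4 for fibroblasts, 1 of 4 for macrophages and 0 of 3 for endothelium reached 2 CPM in either line. The drug labels were checked with ABCG1 and SREBF1, targets of LXR, and with DUSP6, which follows ERK signalling. In Hep3B the authors' deposited tables gave ABCG1 a log2 fold change of 5.99 with GW3965, 0.59 with sorafenib and 6.46 with both drugs. In Huh7 they gave ABCG1 0.75 in the libraries labelled GW3965, 3.82 in those labelled sorafenib and 4.37 with both drugs. SREBF1 stood at 1.96, -0.88 and 1.30 in the same order in Hep3B, and at -0.07, 1.63 and 0.81 in Huh7, in the authors' deposited tables. DUSP6 stood at 0.33, -2.40 and -2.55 in Hep3B, and at -1.70, -0.02 and -1.68 in Huh7, in the authors' deposited tables. These genes go against the labels of the Huh7 groups with a single drug, which are therefore called labelled GW3965 and labelled sorafenib throughout, and no effect of a single drug in Huh7 is read from them.

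The promoters of 6 of the genes are shown because they hold the E-box TCACGTG, the sequence that TFEB and its relatives are known to bind, and because their fold changes with both drugs are given below; CTSA, NEU1, CLCN7, LAMP1 and MCOLN1 are lysosomal and ATG3 belongs to autophagy. The sequences are from RefSeq on GRCh38.p14, run 5′ to 3′ on the strand of the gene from 250 bases before its start to 50 bases after it, and were joined to the expression tables, which use hg19, by gene symbol alone. Capitals mark TCACGTG read on either strand, so that a match followed by A is counted on both strands.
CTSA, chr20:45891085-45891384, + strand: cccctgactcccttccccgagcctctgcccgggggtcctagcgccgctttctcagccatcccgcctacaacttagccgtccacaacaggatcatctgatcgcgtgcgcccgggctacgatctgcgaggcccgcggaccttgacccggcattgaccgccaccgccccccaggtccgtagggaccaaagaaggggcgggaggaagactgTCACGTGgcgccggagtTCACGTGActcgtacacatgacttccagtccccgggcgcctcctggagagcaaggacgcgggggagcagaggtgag
NEU1, chr6:31862772-31863071, - strand: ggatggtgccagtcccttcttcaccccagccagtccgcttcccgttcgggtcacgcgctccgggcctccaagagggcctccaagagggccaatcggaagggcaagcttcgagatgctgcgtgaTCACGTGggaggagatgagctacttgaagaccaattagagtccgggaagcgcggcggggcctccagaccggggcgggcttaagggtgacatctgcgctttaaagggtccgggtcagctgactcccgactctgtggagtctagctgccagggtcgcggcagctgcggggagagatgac
CLCN7, chr16:1474979-1475278, - strand: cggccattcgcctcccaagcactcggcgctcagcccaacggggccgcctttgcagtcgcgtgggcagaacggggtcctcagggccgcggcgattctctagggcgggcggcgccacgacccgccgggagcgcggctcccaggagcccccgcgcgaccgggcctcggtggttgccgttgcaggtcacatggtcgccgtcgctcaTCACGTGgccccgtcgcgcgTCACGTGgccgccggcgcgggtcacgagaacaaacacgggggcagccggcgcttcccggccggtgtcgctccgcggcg
LAMP1, chr13:113296989-113297288, + strand: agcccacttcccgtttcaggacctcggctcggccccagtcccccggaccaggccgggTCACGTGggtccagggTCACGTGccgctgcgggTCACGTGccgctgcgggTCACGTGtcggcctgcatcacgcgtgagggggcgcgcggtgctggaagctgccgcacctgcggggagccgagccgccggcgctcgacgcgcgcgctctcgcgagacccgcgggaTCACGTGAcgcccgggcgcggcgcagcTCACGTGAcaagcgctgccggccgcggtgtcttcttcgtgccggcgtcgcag
MCOLN1, chr19:7522374-7522673, + strand: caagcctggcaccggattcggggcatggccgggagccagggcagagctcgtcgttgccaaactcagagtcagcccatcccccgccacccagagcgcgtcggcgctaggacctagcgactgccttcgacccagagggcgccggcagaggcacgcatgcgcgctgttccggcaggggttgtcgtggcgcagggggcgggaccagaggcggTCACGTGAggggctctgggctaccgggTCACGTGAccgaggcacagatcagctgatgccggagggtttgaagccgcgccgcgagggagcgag
ATG3, chr3:112561913-112562212, - strand: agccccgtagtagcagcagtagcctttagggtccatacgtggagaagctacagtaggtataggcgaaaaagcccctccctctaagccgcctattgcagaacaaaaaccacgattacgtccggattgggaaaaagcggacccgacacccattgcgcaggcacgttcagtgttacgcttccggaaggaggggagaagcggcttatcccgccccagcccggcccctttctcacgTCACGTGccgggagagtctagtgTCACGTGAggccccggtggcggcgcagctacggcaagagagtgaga
LAMP1 held 8 matches, MCOLN1 4, CTSA and ATG3 3 each, CLCN7 2 and NEU1 1. The set of RefSeq promoters used here held 32 of the 41 genes, and 9 of these 32 (28.1%) held TCACGTG, against 3.82% of 27305 promoters of the same length. The 9 were CTSA, CTSD, GAA, NEU1, LAMP1, MCOLN1, CLCN7, ATP6V0D1 and ATG3, so 8 of them are lysosomal. The shorter CACGTG was in the same 9 promoters, against 7.43% of all promoters. The composite element TTGCATCA was in 0 of the 32 and in 0.923% of all promoters, and the antioxidant response core TGACNNNGC was in 9 of the 32 (28.1%) and in 13.6% of all, each searched on both strands. A match describes the letters in this window and does not show that a factor binds there.

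Without drug, TFEB set the 2 lines furthest apart among these genes. Levels of a group were computed from the mean log2 CPM and fold change of the authors' deposited tables, and the DMSO level of a gene at 2 CPM or more differed by at most 0.0957 log2 between the 3 tables of a line. TFEB stood at 30.0 CPM in Hep3B DMSO and at 0.721 CPM in Huh7 DMSO, a level 41.6-fold higher in Hep3B, which ranked 43 among 12123 expressed genes by this difference. TFE3 ran the other way, with 21.7 CPM in Hep3B DMSO and 62.4 CPM in Huh7 DMSO. Per kilobase of transcript, TFEB (13.7 CPM per kb) lay above TFE3 (6.34) in Hep3B DMSO, and TFE3 (18.3) lay above TFEB (0.330) in Huh7 DMSO. MITF, best known from melanocytes, was low in both, at 0.139 CPM per kb in Hep3B DMSO and 0.0863 CPM per kb in Huh7 DMSO. Of these 3 genes TFEB thus had the highest level per kilobase in Hep3B DMSO and TFE3 in Huh7 DMSO, with no test between genes.

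The other genes lay closer between the lines than TFEB did. Of the 41 genes, 39 were at 2 CPM or more in both lines and 40 had a nonzero count in all 70 libraries, MITF being the exception with 67. The median level in DMSO was 15.3 CPM per kb in Hep3B and 16.2 CPM per kb in Huh7, over the 40 genes with a known length. Taken gene by gene, the median of Hep3B DMSO minus Huh7 DMSO was 0.20 log2 over the members and 0.08 log2 over expressed genes. In all, 9 genes were at least 2-fold higher in Hep3B DMSO than in Huh7 DMSO and 4 were at least 2-fold lower, while 26.4% of expressed genes lay 2-fold or more apart. Besides TFEB, the higher genes were the proteases CTSA, CTSD and CTSZ, the glycosidases GUSB, NAGLU and NEU1, the membrane protein LAMP1 and the cargo receptor NBR1. Their excess over Huh7 DMSO ran from 2.11-fold (NBR1) to 3.27-fold (NEU1). The 4 lower genes were the glycosidase GLA, the V-ATPase subunit ATP6V1B2, TFE3 and the ATG8 protein GABARAPL1. With no values of single libraries, these differences between lines were not tested.

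**Figure D1:**
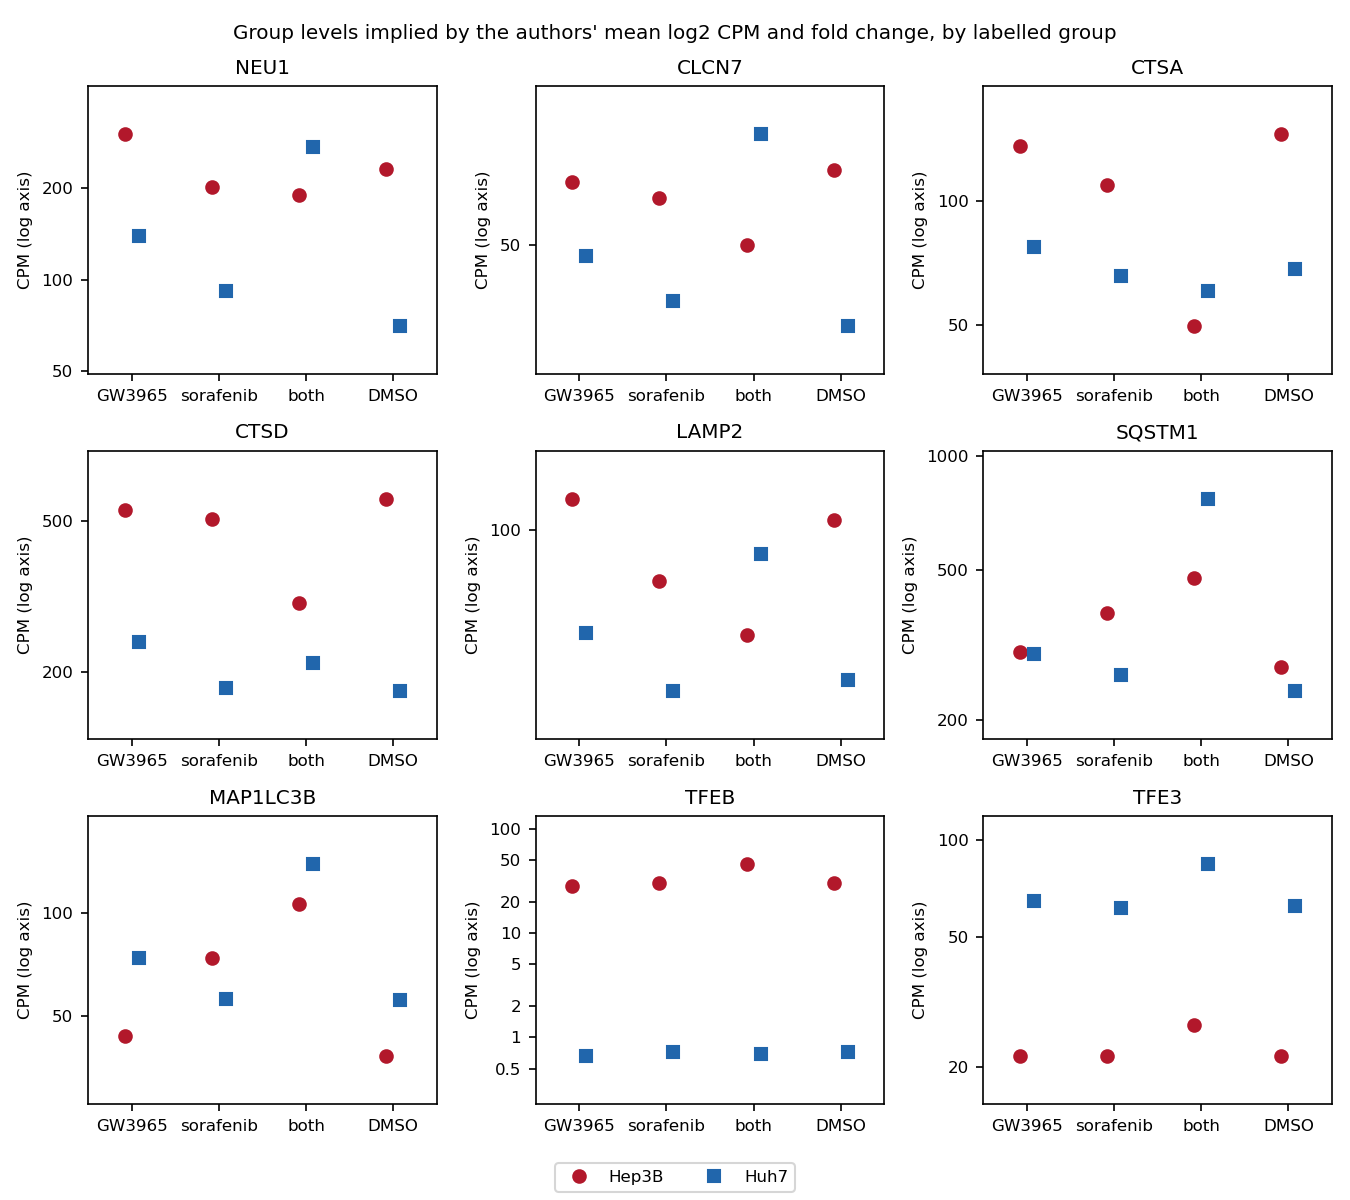
Group levels in CPM (log axis) of 9 genes by labelled drug group, with Hep3B as red circles and Huh7 as blue squares; the points are levels implied by the authors' deposited tables, with no error. TFEB lies near 30.0 CPM in Hep3B DMSO and under 1 CPM in every Huh7 group, and with both drugs NEU1 and CLCN7 lie above their own DMSO level in Huh7 and below it in Hep3B.

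With GW3965 alone in Hep3B the changes of these genes were mostly small. By the edgeR FDR of the authors' deposited table, calls fell on 8 of 41 genes, 5 higher and 3 lower, against 6.79% of all genes and 11.2% of genes with a mean of at least 2 CPM (7.4% higher and 3.82% lower). LIPA, the lysosomal acid lipase that frees cholesterol and fatty acids from esters, was the gene with a change of at least 0.5, at 37.4 CPM with GW3965 and 23.4 CPM with DMSO. Its log2 fold change was 0.68 in the authors' deposited table (edgeR FDR 3.69e-26). The sialidase NEU1 rose by 0.38 (edgeR FDR 1.62e-05), and the 6 other calls lay between -0.22 (ULK1) and 0.20 (MAP1LC3B) in the authors' deposited table. TFEB (-0.09), TFE3 (0.00), MITF (-0.29), LAMP1 (0.06), LAMP2 (0.10), CTSD (-0.10), WIPI1 (0.19), BECN1 (-0.13) and GABARAPL1 (-0.08) were not called in the authors' deposited table, while SQSTM1 rose by 0.14. At an FDR under 0.01, 2 of the 8 calls are left.

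Sorafenib alone in Hep3B raised some autophagy genes and lowered some lysosomal ones. By the authors' deposited table, calls fell on 19 of 41 genes, 10 higher and 9 lower, against 34.7% of all genes and 51.5% of genes with a mean of at least 2 CPM (23.6% higher and 27.9% lower). The share of members called was thus no larger than that of expressed genes. Of the 15 autophagy genes 6 rose and 1 fell, with a median log2 fold change of 0.15, and of the 23 lysosomal genes 4 rose and 8 fell, with a median of -0.18, in the authors' deposited table. The median over genes with a mean of at least 2 CPM was -0.03.

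MAP1LC3B, the ATG8 protein used as the standard marker of autophagosomes, was at 74.1 CPM with sorafenib and 38.3 CPM with DMSO, a log2 fold change of 0.95 in the authors' deposited table (edgeR FDR 7.12e-21). Its relative GABARAPL1 was at 10.5 CPM with sorafenib and 6.82 CPM with DMSO, a log2 fold change of 0.62 in the authors' deposited table. ULK1, the kinase that starts autophagy, rose by 0.50, SQSTM1 by 0.47 and UVRAG, a partner of BECN1, by 0.39 in the authors' deposited table. Among lysosomal genes GLA, which cleaves terminal galactose from glycolipids, was at 6.21 CPM with sorafenib and 11.2 CPM with DMSO and fell by 0.85 in the authors' deposited table (edgeR FDR 3.06e-07). MCOLN1, the lysosomal calcium channel, fell by 0.54, LIPA by 0.48, LAMP1 by 0.33 and LAMP2 by 0.29 in the authors' deposited table. The 4 lysosomal genes that rose were CTSL1, GAA, CTSB and NAGLU, at 0.22 to 0.43 in the authors' deposited table. CTSD (-0.18), TFEB (0.02), TFE3 (-0.01), MITF (0.24), WIPI1 (0.00) and BECN1 (0.06) were not called in the authors' deposited table.

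In Hep3B treated with both drugs the list split by function: lysosomal genes fell and autophagy genes and their transcription factors rose. By the authors' deposited table, calls fell on 35 of 41 genes, 16 higher and 19 lower, against 49.6% of all genes and 72.1% of genes with a mean of at least 2 CPM (36.7% higher and 35.4% lower). Of the 23 lysosomal genes 2 rose and 18 fell, with a median log2 fold change of -0.41, and of the 15 autophagy genes 11 rose and 1 fell, with a median of 0.49, in the authors' deposited table. The median over genes with a mean of at least 2 CPM was 0.01. In this bulk RNA, fewer cells of a kind and less RNA per cell cannot be told apart.

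The hydrolases and activators made up 10 of the 18 lysosomal genes that fell. CTSA, the protease that also holds NEU1 and the beta-galactosidase in a complex, was at 49.6 CPM with both drugs, 136.5 CPM with GW3965, 109.5 CPM with sorafenib and 146 CPM with DMSO. The group with both drugs was far below the other 3, and the log2 fold change of CTSA was -1.56 in the authors' deposited table (edgeR FDR 2.34e-37). CTSD, the main aspartic protease of the lysosome, was at 304 CPM with both drugs and 570.4 CPM with DMSO, and fell by 0.91 in the authors' deposited table (edgeR FDR 1.11e-24). GLA fell by 0.72 and HEXA, the alpha subunit of the hexosaminidase lost in Tay-Sachs disease, fell by 0.59 in the authors' deposited table. CTSL1 was the hydrolase that rose, by 0.25, and CTSB (-0.15) and PSAP (-0.08), the precursor of the saposins, were not called in the authors' deposited table.

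Membrane proteins and the proton pump fell with them. LAMP1 was at 267 CPM with both drugs and 402 CPM with DMSO, and LAMP2 at 71.0 CPM with both drugs and 103 CPM with DMSO. In the authors' deposited table LAMP1 fell by 0.59 and LAMP2 by 0.54 (edgeR FDR 8.18e-12 and 9.67e-10). MCOLN1 and CLCN7, the chloride and proton exchanger, fell by 0.41 and 0.42, and SCARB2, the receptor that carries glucocerebrosidase to the lysosome, was not called at 0.07 in the authors' deposited table. ATP6V0D1, of the membrane sector of the V-ATPase, was at 27.6 CPM with both drugs and 51.2 CPM with DMSO and fell by 0.89 in the authors' deposited table (edgeR FDR 7.04e-22). ATP6V1A, the catalytic subunit, fell by 0.52, ATP6V1B2 by 0.29 and the accessory subunit ATP6AP1 by 0.22, while ATP6V1H, the regulatory subunit, rose by 0.37 in the authors' deposited table. The 8 lysosomal genes with TCACGTG in the promoter all fell in this comparison, as did 5 of the 7 whose promoter was found without it, and ATG3, the remaining gene with that sequence, rose. In Huh7 with both drugs the same 8 held 3 that rose and 5 that were not called, and the 7 without the sequence held 4 that rose and 1 that fell. Lysosomal genes with no promoter in the set used are in neither group, and no difference between genes with and without the sequence was tested.

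All 3 transcription factors rose. TFEB was at 45.9 CPM with both drugs, 28.3 CPM with GW3965, 30.4 CPM with sorafenib and 30.0 CPM with DMSO, and its log2 fold change was 0.61 in the authors' deposited table (edgeR FDR 1.31e-07). TFE3 rose by 0.31, and MITF, at 1.71 CPM with both drugs and 0.671 CPM with DMSO, rose by 1.35 in the authors' deposited table (edgeR FDR 3.85e-10). TFEB transcript was thus higher with both drugs in the cells in which 18 of 23 lysosomal transcripts were lower.

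Among autophagy genes the ATG8 family held the highest rises in Hep3B with both drugs. MAP1LC3B was at 106 CPM with both drugs, 43.9 CPM with GW3965, 74.1 CPM with sorafenib and 38.3 CPM with DMSO. Its log2 fold change was 1.47 in the authors' deposited table (edgeR FDR 3.17e-113). GABARAPL1 was at 16.4 CPM with both drugs and 6.82 CPM with DMSO, a log2 fold change of 1.26 in the authors' deposited table (edgeR FDR 6.9e-16), while GABARAP was not called at 0.00. WIPI1, which binds the lipid made by the BECN1 complex, was at 28.8 CPM with both drugs, 15.5 CPM with GW3965, 13.7 CPM with sorafenib and 13.7 CPM with DMSO. It was called with both drugs and with neither drug alone, at a log2 fold change of 1.08 in the authors' deposited table (edgeR FDR 1.36e-34). UVRAG rose by 0.88, ULK1 by 0.78 and the cargo receptors SQSTM1 and NBR1 by 0.79 and 0.41 in the authors' deposited table. ATG16L1, which directs the conjugation to the membrane, rose by 0.52, ATG3 by 0.49, ATG5 by 0.31 and ATG12 by 0.19, and ATG7, the enzyme that activates ATG8 and ATG12 proteins, fell by 0.24 in the authors' deposited table. BECN1 (-0.06) and ATG9A (-0.05), the membrane protein of the early sac, were not called in the authors' deposited table.

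**Figure D2:**
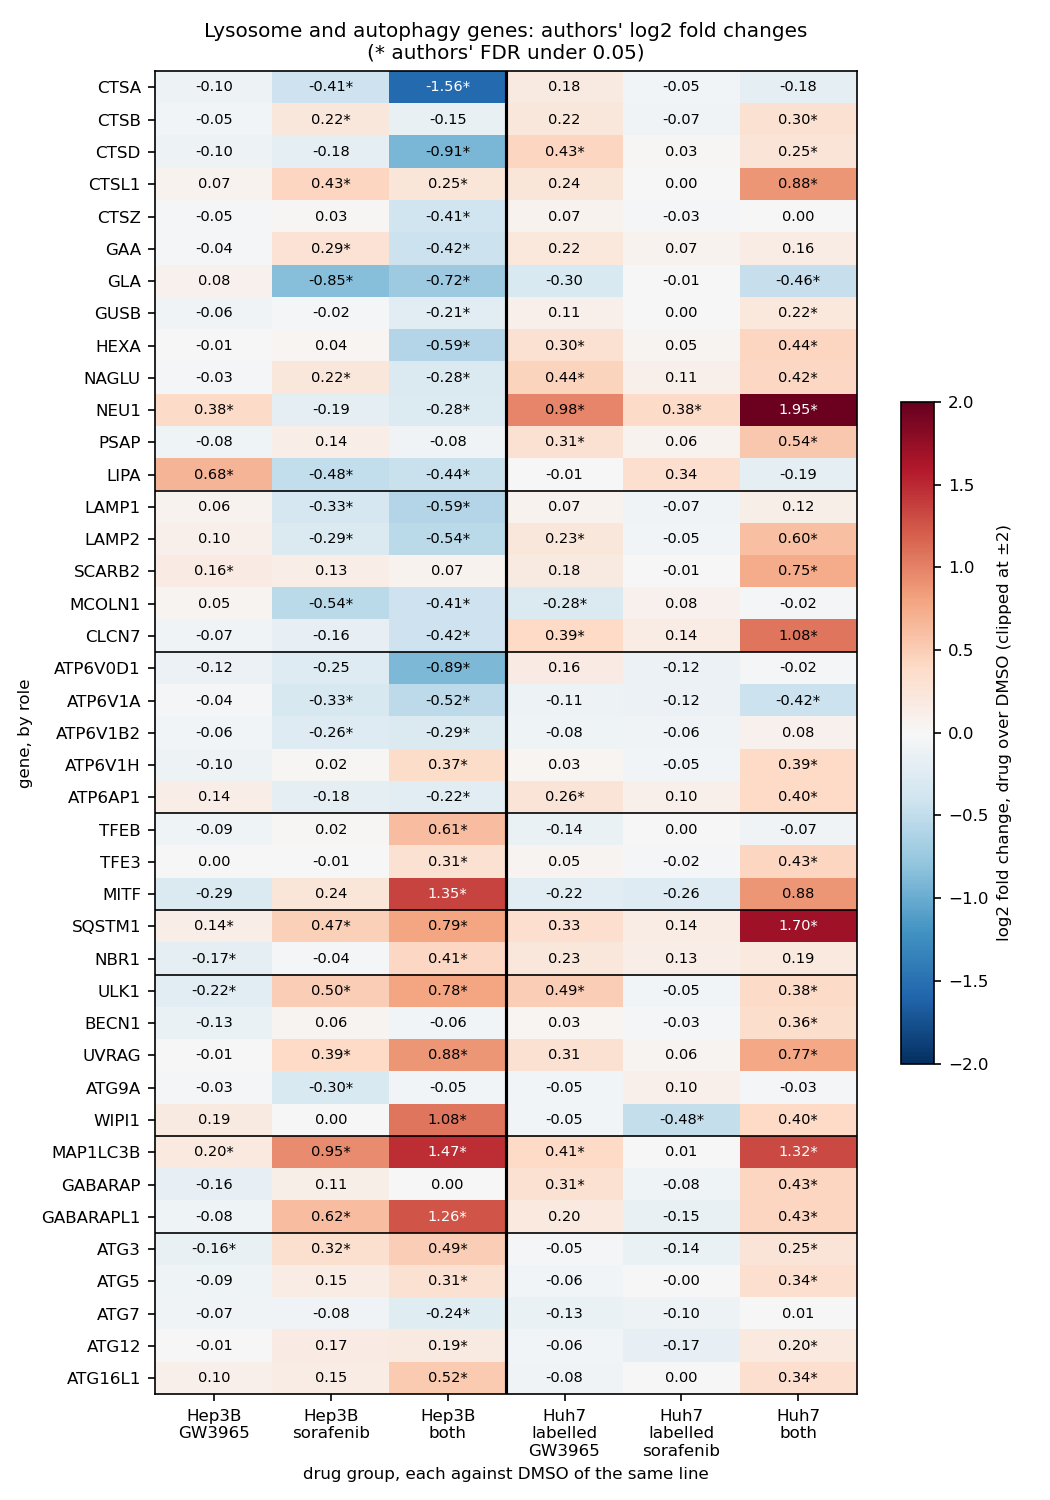
Log2 fold change of drug over DMSO from the authors' deposited tables for the 41 genes (down, by role) in the 6 comparisons (across); red is higher, blue is lower, and a star marks an authors' edgeR FDR under 0.05. The Hep3B column for both drugs is blue with a star for 18 of the 23 lysosomal genes and red with a star for 11 of the 15 autophagy genes. The Huh7 column for both drugs is mostly red in both blocks.

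In Huh7 both drugs raised lysosomal and autophagy genes together. By the authors' deposited table, calls fell on 28 of 41 genes, 26 higher and 2 lower, against 41.6% of all genes and 61.7% of genes with a mean of at least 2 CPM (35.5% higher and 26.1% lower). Of the 23 lysosomal genes 13 rose and 2 fell, with a median log2 fold change of 0.25, and of the 15 autophagy genes 12 rose and 0 fell, with a median of 0.36, in the authors' deposited table. The median over all genes was itself shifted to 0.16, and over genes with a mean of at least 2 CPM it was 0.07.

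NEU1, the lysosomal sialidase, was at 272 CPM with both drugs, 138.5 CPM in the libraries labelled GW3965, 91.6 CPM in those labelled sorafenib and 70.3 CPM with DMSO in Huh7. It is the gene with the largest change of the list, a log2 fold change of 1.95 in the authors' deposited table (edgeR FDR 8.52e-103). CLCN7 was at 76.9 CPM with both drugs and 36.5 CPM with DMSO, a log2 fold change of 1.08 in the authors' deposited table (edgeR FDR 1.26e-26). The cysteine protease CTSL1 rose by 0.88, SCARB2 by 0.75, LAMP2 by 0.60 and PSAP by 0.54 in the authors' deposited table. CTSD rose by 0.25 (edgeR FDR 0.0222 in the authors' deposited table) and was at 211 CPM with both drugs and 178 CPM with DMSO. LAMP1 (0.12), CTSA (-0.18), MCOLN1 (-0.02) and ATP6V0D1 (-0.02) were not called in the authors' deposited table. The 2 genes that fell were GLA, by 0.46, and ATP6V1A, by 0.42, in the authors' deposited table.

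SQSTM1, which carries ubiquitinated cargo to the autophagosome, was at 770.2 CPM with both drugs, 299.7 CPM in the libraries labelled GW3965, 263 CPM in those labelled sorafenib and 238 CPM with DMSO in Huh7. Its log2 fold change with both drugs was 1.70 in the authors' deposited table (edgeR FDR 9.04e-33). MAP1LC3B was at 139 CPM with both drugs and 55.8 CPM with DMSO, a log2 fold change of 1.32 in the authors' deposited table (edgeR FDR 4.68e-12). UVRAG rose by 0.77, GABARAPL1 by 0.43, WIPI1 by 0.40, ULK1 by 0.38 and BECN1 by 0.36 in the authors' deposited table. The 3 autophagy genes without a call were NBR1 (0.19), ATG9A (-0.03) and ATG7 (0.01) in the authors' deposited table. TFE3, the highest of the 3 transcription factors in Huh7 DMSO, rose by 0.43 (edgeR FDR 4.16e-05 in the authors' deposited table). It was at 84.1 CPM with both drugs and 62.4 CPM with DMSO. TFEB (-0.07) and MITF (0.88, edgeR FDR 0.062) were not called in the authors' deposited table, both at under 1 CPM.

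In the Huh7 libraries labelled GW3965, the authors' deposited table held calls for 12 of 41 genes, 11 higher and 1 lower, against 20.4% of all genes and 31.4% of genes with a mean of at least 2 CPM (13.6% higher and 17.8% lower). Of the 23 lysosomal genes 8 rose and 1 fell, with a median log2 fold change of 0.18 in the authors' deposited table, against a median of -0.04 over genes with a mean of at least 2 CPM. NEU1 rose by 0.98 (edgeR FDR 1.12e-10), ULK1 by 0.49, CTSD by 0.43, MAP1LC3B by 0.41 and LAMP2 by 0.23, and MCOLN1 fell by 0.28 in the authors' deposited table. TFEB (-0.14), TFE3 (0.05), MITF (-0.22), LAMP1 (0.07), SQSTM1 (0.33), GABARAPL1 (0.20), WIPI1 (-0.05) and BECN1 (0.03) were not called in the authors' deposited table. In the libraries labelled sorafenib the authors' deposited table held calls for 2 of 41 genes, NEU1 at 0.38 and WIPI1 at -0.48, against 2.05% of all genes and 3.32% of genes with a mean of at least 2 CPM (2% higher and 1.32% lower). TFEB, TFE3, MITF, LAMP1, LAMP2, CTSD, SQSTM1, MAP1LC3B, GABARAPL1, ULK1 and BECN1 lay there between -0.26 (MITF) and 0.14 (SQSTM1) in the authors' deposited table and were not called.

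The response to both drugs differed between the lines for most lysosomal genes. A difference of 2 log2 fold changes was tested with an approximate normal test, whose standard error was recovered from the authors' p-values, and the p-values were Benjamini-Hochberg adjusted over the genes with a mean of at least 2 CPM. Of the 40 members tested, which leave out MITF, 26 differed between Hep3B and Huh7, 4 with a higher response in Hep3B and 22 with a lower one, against 44.3% of 11511 genes (17.9% higher and 26.3% lower). All 19 lysosomal genes that differed of 23 were lower in Hep3B, with a median difference of -0.62 log2, while the 15 autophagy genes held 3 higher and 3 lower. NEU1 differed most, at -2.23 ± 0.13 log2 (approximate SE, normal test with Benjamini-Hochberg adjusted p = 1.14e-62). CLCN7 differed by -1.49 ± 0.14, CTSA by -1.38 ± 0.15, CTSD by -1.16 ± 0.13, LAMP2 by -1.14 ± 0.12 and HEXA by -1.03 ± 0.12 log2 (approximate SE).

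With both drugs, 8 genes of the authors' deposited tables fell in Hep3B and rose in Huh7, namely CTSD, GUSB, HEXA, NAGLU, NEU1, LAMP2, CLCN7 and ATP6AP1, all lysosomal, while 3.75% of the 11511 genes with a mean of at least 2 CPM did so. GLA and ATP6V1A fell in both lines, against 18.4% of genes, and 13 members rose in both, of which 10 are autophagy genes, against 23.4% of genes. The higher responses in Hep3B were those of GABARAPL1 (0.83 ± 0.18 log2), TFEB (0.68 ± 0.23), WIPI1 (0.68 ± 0.14) and ULK1 (0.41 ± 0.16), with approximate SE. TFEB was under 1 CPM in every Huh7 group, and its call was lost without the filter on low values (Benjamini-Hochberg adjusted p = 0.0562 in the normal test), while a filter of at least 2 CPM in each table left it untested. Autophagy genes with the lower response in Hep3B were SQSTM1 (-0.91 ± 0.16 log2), GABARAP (-0.43 ± 0.15) and BECN1 (-0.42 ± 0.12). For MAP1LC3B no difference was called, and its interval ran from -0.24 to 0.55 log2 (95%, not adjusted for the number of genes). None of the 5 conjugation genes was called in this contrast by the approximate test, and their intervals lay within -0.48 (ATG7) and 0.48 (ATG3) log2. Of these 5 intervals that of ATG7 alone left out 0, ending at -0.0041 log2.

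**Figure D3:**
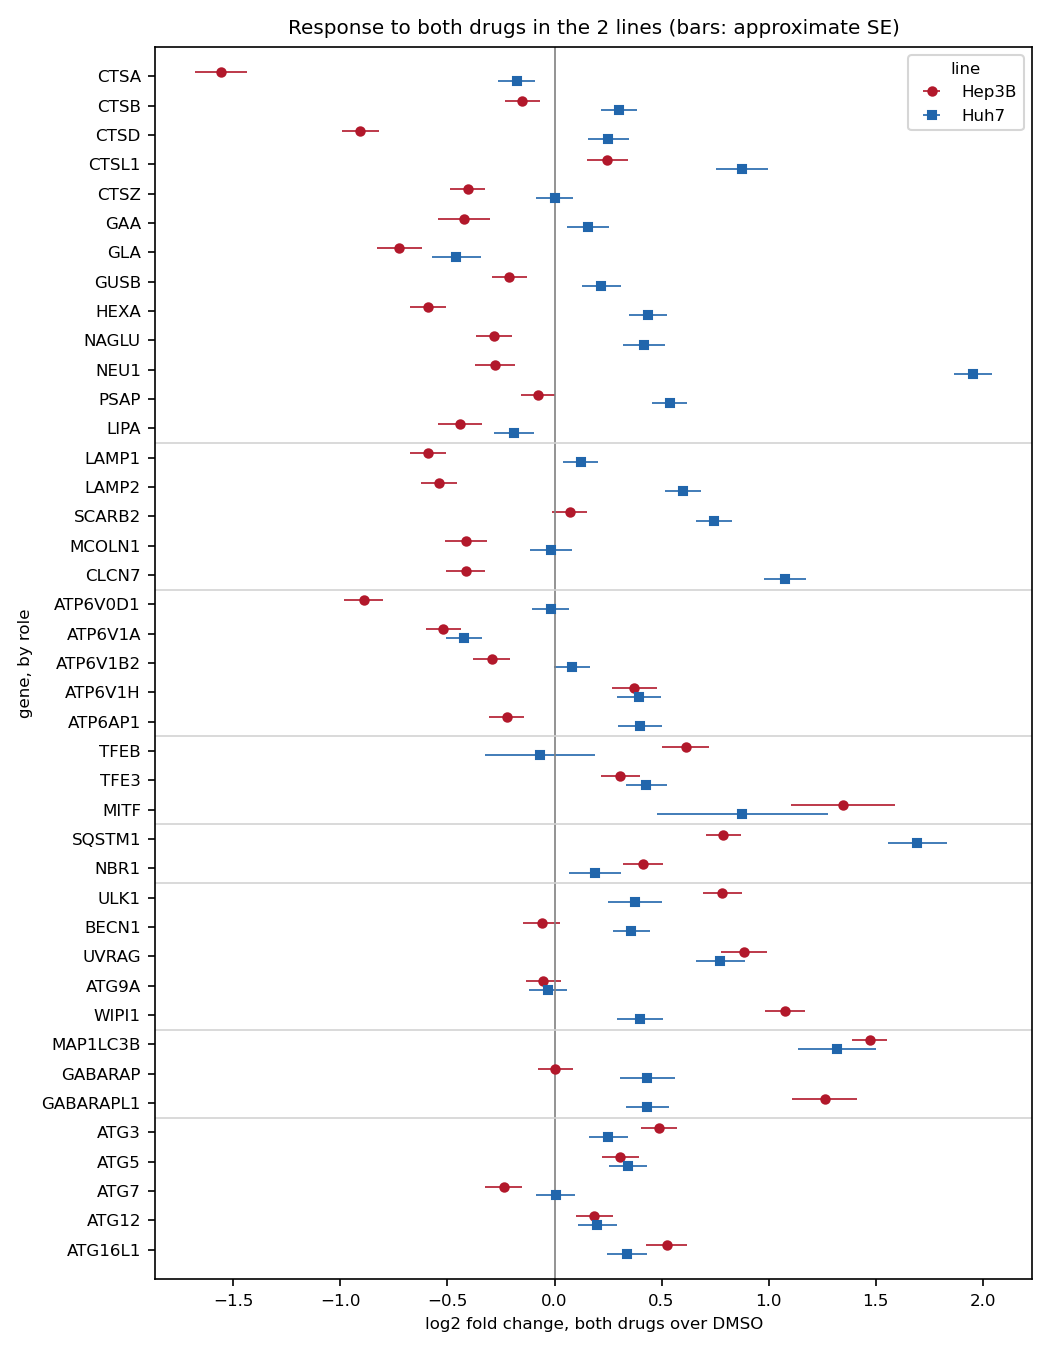
Log2 fold change of both drugs over DMSO for the 41 genes by role, Hep3B as red circles and Huh7 as blue squares, from the authors' deposited tables, with bars of 1 approximate SE. In the upper blocks of lysosomal genes the Hep3B points lie mostly left of the Huh7 points, and in the lower blocks of autophagy genes the points of both lines lie mostly right of 0.

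In Hep3B the response to both drugs was also set against that to each drug alone. Against GW3965 alone, 30 of 40 members differed with both drugs, 13 higher and 17 lower, by the approximate test with Benjamini-Hochberg adjustment, against 64.1% of genes (30.8% higher and 33.2% lower). Against sorafenib alone 15 of 40 differed, 7 higher and 8 lower, against 31.3% of genes (16.7% higher and 14.6% lower). The 8 lower were lysosomal, namely CTSA (-1.14 ± 0.17 log2), CTSD (-0.73 ± 0.14), GAA (-0.71 ± 0.16), ATP6V0D1 (-0.64 ± 0.14), HEXA (-0.63 ± 0.13), NAGLU (-0.50 ± 0.13), CTSZ (-0.43 ± 0.13) and CTSB (-0.37 ± 0.13), with approximate SE. The 7 higher were WIPI1 (1.07 ± 0.14 log2), GABARAPL1 (0.64 ± 0.20), TFEB (0.59 ± 0.15), MAP1LC3B (0.52 ± 0.13), UVRAG (0.49 ± 0.17), NBR1 (0.46 ± 0.14) and ATG16L1 (0.38 ± 0.14). LAMP1 and LAMP2 were not called here, with intervals of -0.52 to 0.01 and -0.52 to 0.01 log2, nor was GLA, with -0.25 to 0.50 log2.

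Departure from additivity is the log2 fold change of both drugs minus the sum of those of the single drugs. In Hep3B 16 of 40 members departed from it by the approximate test with Benjamini-Hochberg adjustment, 7 upward and 9 downward, against 22.3% of genes (10.9% upward and 11.4% downward). The downward genes were all lysosomal, from CTSA (-1.05 ± 0.18 log2), GAA (-0.67 ± 0.17), LIPA (-0.64 ± 0.16), CTSD (-0.63 ± 0.15) and HEXA (-0.62 ± 0.15) to CTSZ (-0.38 ± 0.14). Upward departures were those of WIPI1 (0.88 ± 0.16 log2), GABARAPL1 (0.73 ± 0.23), TFEB (0.68 ± 0.16), NBR1 (0.63 ± 0.15), ULK1 (0.51 ± 0.19), UVRAG (0.50 ± 0.19) and ATP6V1H (0.45 ± 0.16). Without the filter on low values the calls of CTSZ, ULK1 and UVRAG were lost, at Benjamini-Hochberg adjusted p = 0.0597, 0.0575 and 0.0803 in the normal test. GAA shows the pattern plainly, with fold changes of -0.04 with GW3965, 0.29 with sorafenib and -0.42 with both drugs in the authors' deposited tables. All 3 fold changes of this sum share the DMSO libraries, whose error is counted more than once, so the test is not exact.

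In Huh7 the single-drug groups enter these contrasts under their labels. Against labelled GW3965, 16 of 39 members differed with both drugs, 14 higher and 2 lower, by the approximate test with Benjamini-Hochberg adjustment, against 30.1% of genes (20.4% higher and 9.68% lower). Against labelled sorafenib 27 of 39 differed, 24 higher and 3 lower, against 47.3% of genes (29.2% higher and 18.1% lower). Departure from additivity, which does not depend on which single-drug label is which, was called for 13 of 39 members, 12 upward and 1 downward, against 21.5% of genes (15.5% upward and 5.94% downward). The upward genes were led by SQSTM1 (1.22 ± 0.22 log2), WIPI1 (0.93 ± 0.18), MAP1LC3B (0.90 ± 0.22), CTSL1 (0.63 ± 0.19), NEU1 (0.59 ± 0.18), SCARB2 (0.58 ± 0.15) and CLCN7 (0.54 ± 0.17), with approximate SE. LIPA departed downward, by -0.51 ± 0.18 log2, as it did in Hep3B.

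**Figure D4:**
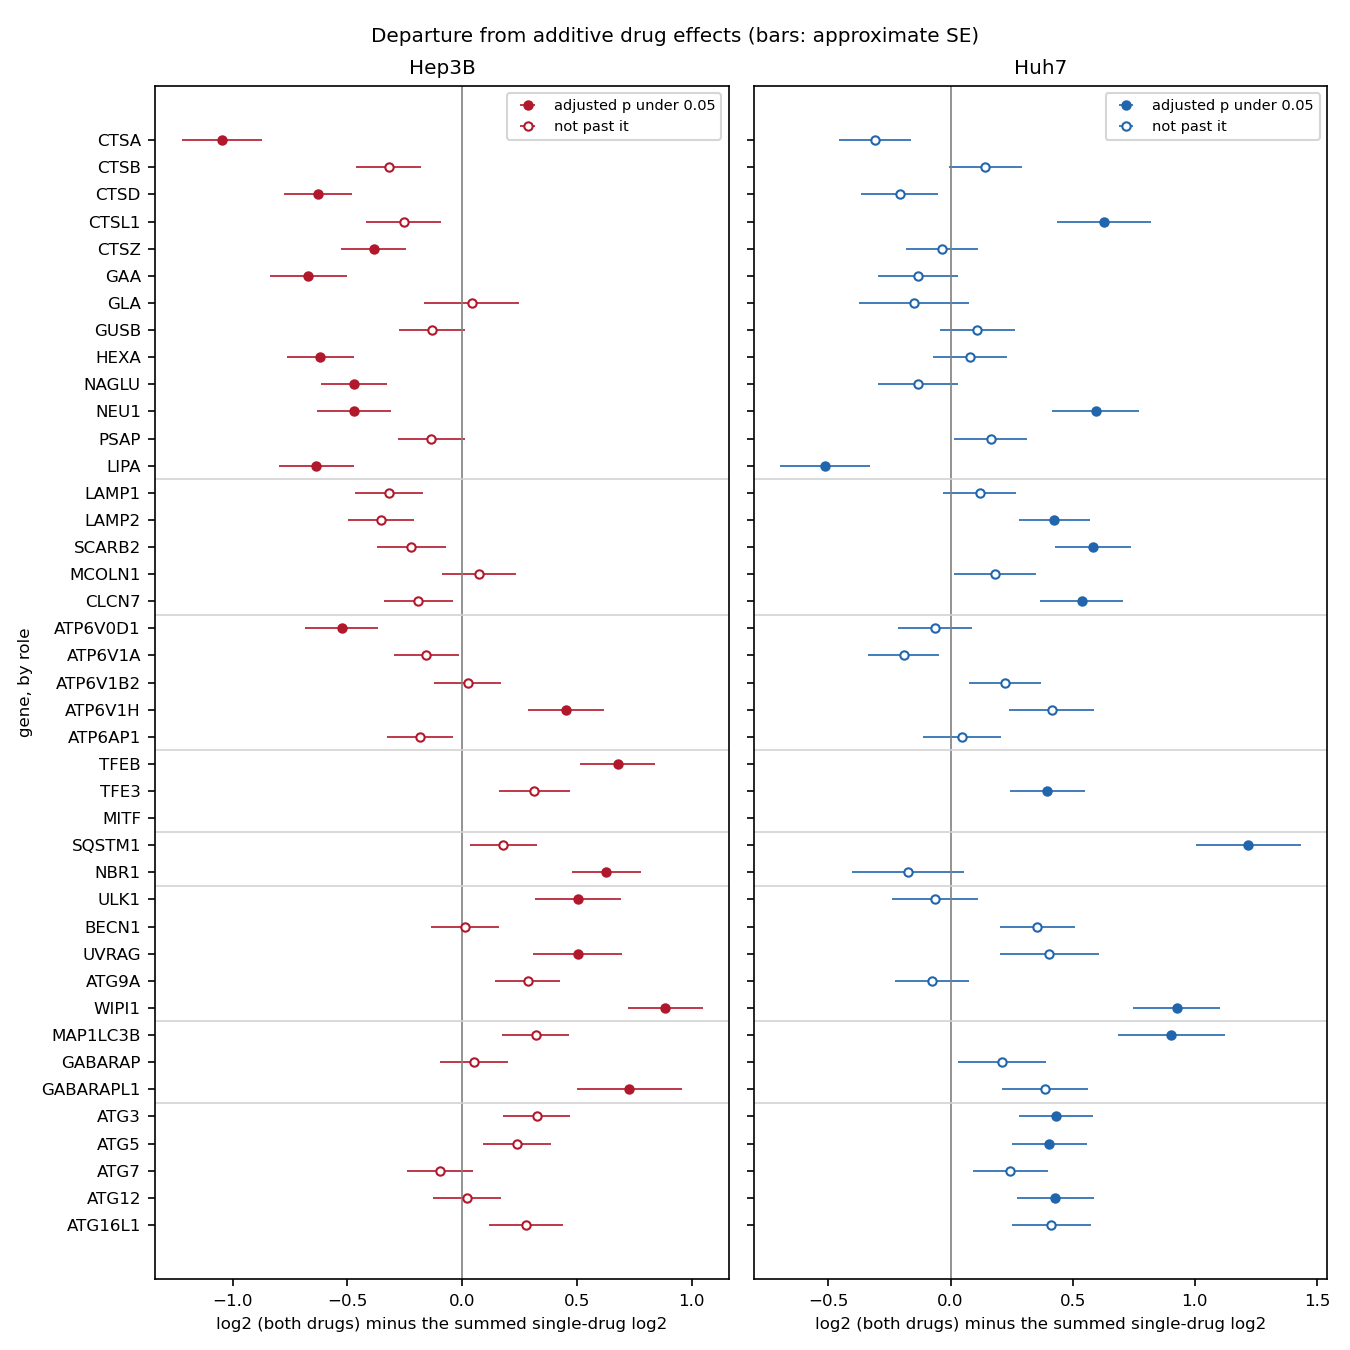
Departure from additivity (log2 fold change of both drugs minus the sum of the single-drug values) for the members by role, Hep3B left and Huh7 right, with bars of 1 approximate SE; filled points passed an adjusted p under 0.05, and members under 2 CPM have no point. In Hep3B 9 lysosomal genes lie left of 0 as filled points, and in Huh7 12 of the 13 filled points lie right of 0.

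The other genes of the pathway were 138 in 8 lists, and among expressed genes 36.7% rose and 35.4% fell with both drugs in Hep3B, while 35.5% rose and 26.1% fell in Huh7. Of 62 other lysosomal genes 10 rose and 39 fell with both drugs in Hep3B, with a median log2 fold change of -0.47, and 29 rose and 13 fell in Huh7, with a median of 0.21, in the authors' deposited tables. Of 37 other autophagy genes 12 rose and 9 fell in Hep3B, and 15 rose and 6 fell in Huh7, the medians being 0.13 in Hep3B and 0.17 in Huh7 by the authors' deposited tables. The other autophagy genes thus held rises and falls in Hep3B, at shares below those of expressed genes. Among the other lysosomal genes the largest falls with both drugs in Hep3B were those of the protease CTSF (-1.88), the sulfatases SGSH (-1.49) and ARSB (-1.48) and, among pump subunits, ATP6V0C (-1.02) in the authors' deposited table. LAMP3, a lysosomal membrane protein that responds to cell stress, rose by 5.55 in Hep3B and by 4.58 in Huh7 in the authors' deposited tables. These rises start from low DMSO levels, 0.816 CPM in Hep3B and 0.790 CPM in Huh7. NPC1, which exports cholesterol from the lysosome, rose by 1.42 in Hep3B and by 1.15 in Huh7, while its partner NPC2 fell by 0.52 in Hep3B and rose by 1.38 in Huh7 in the authors' deposited tables. IDS, which degrades heparan sulfate, rose by 2.07 and the mannosidase MANBA by 1.62 in Huh7 in the authors' deposited table.

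Of 12 other genes of cargo receptors and selective autophagy 5 rose and 3 fell with both drugs in Hep3B, against 36.7% and 35.4% of expressed genes. In Huh7 6 rose and 2 fell in the authors' deposited tables, against 35.5% and 26.1%. In both lines 4 rose, against 23.4% of genes, and of these FAM134B was at 0.671 CPM or less in every Hep3B group. With both drugs STBD1, a receptor for glycogen, rose by 2.21 in Hep3B and by 2.18 in Huh7, and OPTN, a receptor for mitochondria, by 1.53 in Hep3B and by 2.07 in Huh7 in the authors' deposited tables. Of 26 genes of mTORC1 and nutrient sensing 9 rose and 9 fell in Hep3B, shares close to those of expressed genes, and 16 rose and 1 fell in Huh7 in the authors' deposited tables. The mTORC1 inhibitors DDIT4 and SESN2 had log2 fold changes of 2.73 and 2.40 in Hep3B and of 2.72 and 2.45 in Huh7, all called in the authors' deposited tables. The other sestrins went the other way in Hep3B, where SESN3 fell by 1.69 and SESN1 by 1.14, while in Huh7 SESN3 rose by 0.98 and SESN1 was not called at -0.14, in the authors' deposited tables. RRAGC, a GTPase that brings mTORC1 to the lysosome, and FLCN, its regulator, had log2 fold changes of 0.47 and 0.38 in Hep3B and of 1.79 and 1.65 in Huh7, all called in the authors' deposited tables. Of 13 genes of autophagosome fusion 2 rose and 7 fell in Hep3B, and 9 rose and 1 fell in Huh7 in the authors' deposited tables. These counts stand against the same shares of expressed genes. VAMP8, a fusion protein, fell by 0.80 in Hep3B and by 0.63 in Huh7.

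**Figure D5:**
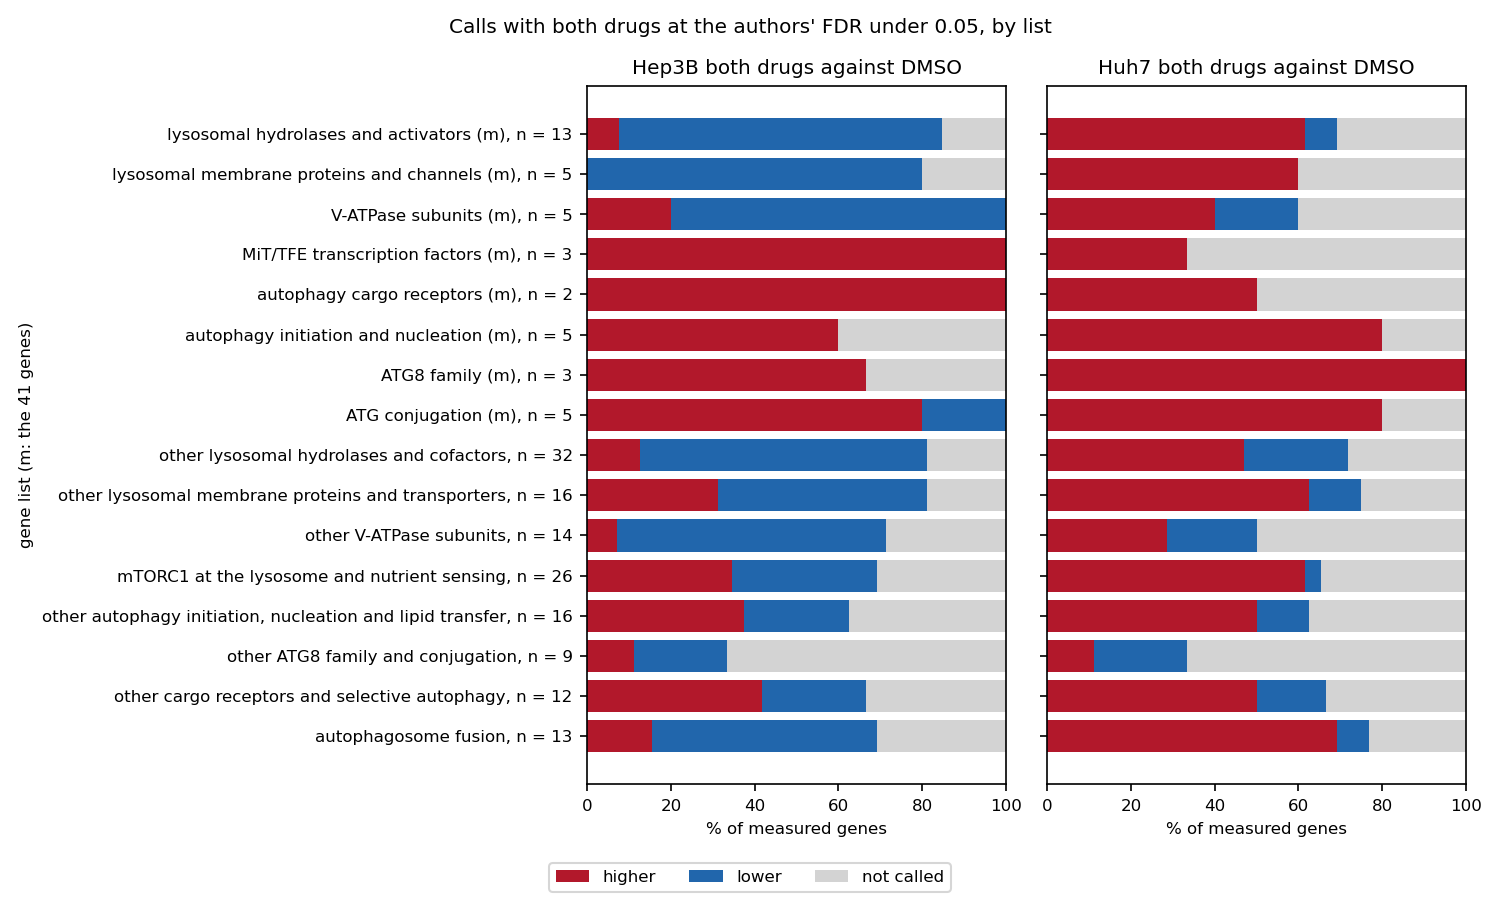
Share of the measured genes of each list called higher (red), lower (blue) or not called (grey) with both drugs against DMSO, at the authors' edgeR FDR under 0.05, Hep3B left and Huh7 right; (m) marks lists of the 41 genes. The lysosomal and V-ATPase lists hold more blue than red in Hep3B and more red than blue in Huh7.

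The fold changes of most members with more than 1 transcript hardly differed between their transcripts, which is no separate test of them. Transcripts of a gene mostly had near-equal levels too, such as a mean log2 CPM of 9.14 for each of the 3 of PSAP with GW3965 in Hep3B. The tables list 79 transcripts for the 41 genes, and of the 17 genes with more than 1 transcript 15 had fold changes within 0.1 log2 of each other in every comparison. LAMP2 and MITF were the exceptions. With both drugs in Hep3B the representative MITF transcript NM_198159 rose by 1.35 in the authors' deposited table. NM_001184968, with a nonzero count in 35 of 70 libraries, was not called there, at 0.74 (edgeR FDR 0.18). With both drugs the representative LAMP2 transcript NM_013995 fell by 0.54 in Hep3B, while NM_002294 and NM_001122606 fell by 0.34 each, in the authors' deposited table. In Huh7 NM_013995 rose by 0.60, NM_002294 by 0.74 and NM_001122606 by 0.71 in the authors' deposited table. Exons of 16 members overlap those of another gene, 11 of them over at least 10% of their bases in GENCODE v29, and no step that keeps the strand is given in the sources used here. On the opposite strand the overlap is 39.8% of SQSTM1 (with MRNIP), 32.2% of ATG7 (VGLL4), 28.5% of WIPI1 (ARSG) and 25.2% of GABARAP (AC120057.3). It is also 23.8% of CLCN7 (AL031600.3), 23.5% of BECN1 (CNTD1), 10.7% of HEXA (AC009690.2) and, for CTSA, 10.6% (AL008726.1) and 10.4% (NEURL2). On the same strand it is 54.9% of CTSD (AC068580.4), 43.5% of ATG9A (AC068946.2) and 30.5% of GABARAP (AC120057.2). There it is also 14.9% of NAGLU (AC067852.1) and 10.2% of HEXA (AC009690.1). Reads from these pairs may be mixed. MAP1LC3B has a near copy in MAP1LC3B2, whose own log2 fold change with both drugs was 0.84 in Hep3B and 1.05 in Huh7 in the authors' deposited tables, and GABARAPL1 has one in GABARAPL3, which was not called. Both near copies were low. In the comparisons of both drugs with DMSO the mean log2 CPM of MAP1LC3B2 was -0.83 in Hep3B and -0.51 in Huh7. That of GABARAPL3 was -2.15 in Hep3B and -2.06 in Huh7.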

How the data were processed

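Poly-A RNA of 2 hepatoma lines was sequenced, 70 libraries in 8 groups set by the labels. Of the upstream tools, edgeR (version not stated) and the builds GRCh37 and hg19 are known from the submitters' processing notes. Alignment, counting and normalization are steps not given in the sources used here. The authors deposited, per the file headers, 6 tables, which list for 32321 transcripts the mean on a log2 CPM scale and the log2 fold change of drug over DMSO. Per the file headers the authors also deposited a p-value and an FDR, which equals Benjamini-Hochberg adjustment over all transcripts of a table. The authors marked 1 representative transcript for each of 20090 genes and counted the libraries in which a transcript was above 0, per the file headers. Single libraries were not used here, so depth is unknown.

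A gene was called at the authors' FDR under 0.05, and their edgeR tests were not rerun. Group levels were computed from the mean and the fold change with the numbers of libraries. In 7 contrasts the difference of log2 fold changes was tested with an approximate normal test, each SE being recovered from the fold change and its p-value by the normal quantile, with a floor at the median of its expression bin (20 bins), adjusted over genes with a mean of at least 2 CPM. The script was tested on simulated data, which held fewer true differences than were called here. A true difference of 0.5 log2 was called for 19% of such genes between the lines. For departure from additivity in Hep3B the share was 4%, and for both drugs minus sorafenib in Hep3B it was 3.39%. True differences of 1 log2 were called for 80%, 78.5% and 81.2% in the same order. A gene that was not called may thus still differ by 0.5 log2. Within a line the DMSO libraries are shared, so their error is counted more than once.

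The members and the 8 other lists were chosen with earlier results of these data known. Named are all members called with a log2 fold change of at least 0.5, 12 members in every comparison, up to 5 added for contrast, up to 4 genes of each other list whose called changes were largest (mean 2 CPM or more), and ABCG1, SREBF1 and DUSP6; GAA, NBR1 and the other members given for a role or contrast beyond these, and other-list genes named in both lines, were chosen after their values were seen. Of the 138 other genes 6 were found under older symbols through RefSeq synonyms. Promoters were from RefSeq. Python 3.11.15, pandas 2.3.3, numpy 2.4.6, scipy 1.17.1 and matplotlib 3.10.9 were used. The alternatives tried are given at the end.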

Additional observations from a re-analysis of the deposited data

Results flagged for a closer look

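The response to both drugs differed between the lines for 26 of the 41 genes, by the approximate test of the difference with Benjamini-Hochberg adjustment, and each is given as the log2 fold change in Hep3B minus that in Huh7. Among hydrolases and activators the difference was below 0 for NEU1 (-2.23), CTSA (-1.38), CTSD (-1.16), HEXA (-1.03), NAGLU (-0.70), CTSL1 (-0.63), PSAP (-0.61), GAA (-0.58), CTSB (-0.45), GUSB (-0.43) and CTSZ (-0.41). Among membrane proteins and channels it was below 0 for CLCN7 (-1.49), LAMP2 (-1.14), LAMP1 (-0.71), SCARB2 (-0.68) and MCOLN1 (-0.39). Of the V-ATPase subunits the response was lower in Hep3B for ATP6V0D1 (-0.87), ATP6AP1 (-0.62) and ATP6V1B2 (-0.37). In autophagy it was lower in Hep3B for SQSTM1 (-0.91), GABARAP (-0.43) and BECN1 (-0.42). The response was higher in Hep3B for GABARAPL1 (0.83), TFEB (0.68), WIPI1 (0.68) and ULK1 (0.41).

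The sign of the response itself was opposite and called in each line for 8 of these genes, CTSD, GUSB, HEXA, NAGLU, NEU1, LAMP2, CLCN7 and ATP6AP1, against 3.75% of the 11511 genes with a mean of at least 2 CPM. The call of TFEB, which was under 1 CPM in Huh7, was lost without the filter on low values (adjusted p = 0.0562). No cause of the difference between the lines was tested.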

How the results depend on the processing

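No paired analysis was possible because the tables hold no values of single libraries, and leave-one-out fits were not run for the same reason. At an FDR under 0.01 in place of 0.05, the members called with GW3965 in Hep3B numbered 2 (8 at 0.05), the lysosomal members higher in Hep3B numbered 1 with sorafenib (4) and 1 with both drugs (2), and the lysosomal members lower in Huh7 labelled GW3965 numbered 0 (1). At an adjusted p under 0.01 in the approximate test, 6 members differed between both drugs and labelled GW3965 in Huh7 (16 at 0.05), and 10 in Hep3B (16) and 6 in Huh7 (13) departed from additivity. Of the 89 values of single named genes, 84 stayed on their side of the threshold at an FDR under 0.01 and 5 did not, these being SQSTM1, ULK1 and MAP1LC3B with GW3965 in Hep3B, LAMP2 in Huh7 labelled GW3965 and CTSD with both drugs in Huh7. All other counts stayed within 1.5 times their value with each of the alternatives that follow. No named call changed with Benjamini-Hochberg adjustment over representative transcripts alone or with the transcript with the highest mean. Transcripts of a gene mostly had near-equal values, so the choice of transcript hardly tests the calls. Fold changes minus the table median, a mean of at least 2 CPM and, chosen after seeing the data, a nonzero count in all libraries were also tried. The median shift moves fold changes but not the FDR, and the filters only drop genes. A gene that they kept therefore could not change its call, so they do not test the calls. The 2 CPM filter left out 9 of the 89 values and the filter on nonzero counts 6. Among them was the rise of MITF with both drugs in Hep3B, so that 34 members were called there (35 with MITF). Counts also stayed within 1.5 times for the 7 contrasts with no floor on the SE, with no filter and with at least 2 CPM in each table. No result reversed. Replicate spread and depth could not be examined, and the approximate test rests on the p-values of the authors.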
